A study of Mus musculus with 24 samples.

Results

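The genes described here encode the Fos and Jun proteins and the related Batf3, the subunits of the transcription factor AP-1. They were found by their symbols among the probes of a mouse bead array, and older array names were brought up to date through a RefSeq gene table, so that the array name Jund1 was read as Jund. Of the 8 genes Fos, Fosb, Fosl1, Fosl2, Jun, Junb, Jund and Batf3, 7 had at least 1 probe, with 11 probes in all among 45281, and Fosl1 is not analysed here. RNA came from a BALB/c mouse embryo fibroblast line, BALB/3T3 clone A31, grown with serum beneath a culture insert for 24 h. Inserts held a powder of an alloy of iron and manganese (Fe-35Mn) at 5000 µg/ml, of pure manganese at 500 µg/ml or of pure iron at 3250 µg/ml (written with a decimal comma in the labels), or no metal in the controls. Each of the 4 groups had 6 arrays. The sample titles call the replicates technical, so p-values here measure only how much these arrays vary, and that variation may be technical. In such bulk RNA of 1 cell line, fewer cells that express a gene and less of its RNA per cell cannot be told apart.

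AP-1 is a pair of proteins of the basic leucine zipper class that binds DNA as a dimer. Jun proteins can pair with themselves or with Fos proteins, whereas Fos proteins need a Jun partner, and Batf3 binds as a partner of Jun proteins. In fibroblasts Fos, Fosb, Jun and Junb are immediate early genes, switched on within minutes of growth factors or stress and then shut off, while Jund is more steadily expressed. Jun is known to activate its own promoter through an AP-1 site, and Jund is known in mouse fibroblasts as an antagonist of proliferation.

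Jun and Fos moved in opposite directions, so the 120 bases before each annotated start are shown. They are given 5′ to 3′ on the gene strand, from the RefSeq promoter table of GRCm38.p6. In the Jun stretch, at chr4:95052223-95052342 on the minus strand, the capitals mark TGACATCA, a variant of the AP-1 site that starts 45 bases before the gene start. In the Fos stretch, at chr12:85473770-85473889 on the plus strand, the capitals mark the first bases of a cyclic AMP response element and, nearer the gene start, a TATA box.
Jun: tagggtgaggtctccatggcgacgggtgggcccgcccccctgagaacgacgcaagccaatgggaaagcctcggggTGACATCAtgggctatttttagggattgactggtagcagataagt
Fos: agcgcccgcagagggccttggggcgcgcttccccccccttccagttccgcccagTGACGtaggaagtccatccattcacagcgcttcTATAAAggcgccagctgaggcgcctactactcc
On either strand of the 250 bases before the start, TGACATCA was found in Jun alone of the 7 genes with a promoter entry, against 2.93% of 32851 promoters. The partial response element TGACG was found in Fos, Fosb and Junb, against 17.8% of promoters. Of the 7 genes Fos alone had the TATA box letters TATAAA, which 12.4% of promoters hold. The AP-1 consensus TGACTCA (4.46% of promoters), the full response element TGACGTCA (1.55%), which contains TGACG, and the ATF4 element TGATGCAA (0.791%) were in none of the 7 windows. The motifs were chosen after the promoters were seen, so these shares are no test of enrichment. A match describes the letters of these windows and is not a measured binding site.

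Array medians of the deposited intensity ran between 61.6 and 75.3, and the upper edge of the dim probes, taken as background, between 71.7 and 86.8, with 36.9% to 43.4% of probes beyond it. Probes above background on at least 6 of the 24 arrays were kept, which left 13103 genes, each read from its brightest probe. Of the fibroblast markers 10 of 11 were above background on all arrays, and Lum was above it on 0. Of 9 leukocyte markers 6 were above it on fewer than 6 arrays, and the other 3, Aif1, Lyz2 and Cd68, on 15, 12 and 7. On all arrays 2 of 7 epithelial markers (Krt8 and Krt14), 0 of 6 endothelial and 1 of 6 muscle markers (Des) were above background, with Cdh1 on 21 and Myog on 20 arrays. The defining markers Ptprc, Epcam, Pecam1 and Myod1 were above it on 0 arrays. Alloy arrays varied most, with a median SD per gene of 0.147 log2 units, against 0.0834 for manganese, 0.0765 for iron and 0.0761 for control arrays. Each comparison was fitted with its own 2 groups, a choice made with this spread and the counts of both kinds of fit known. Values below are normalized log2 intensities, and a level of 1 gene is not set against that of another, since probes differ in brightness.

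Of the 7 genes 6 were kept, and Batf3 was not: its 2 probes were below background on all 24 arrays, at intensities of 55.9 to 70.0 and 52.3 to 66.0. With manganese 5 of the 6 genes passed an adjusted p of 0.05, 3 higher and 2 lower, where 61.4% of all genes passed, 29.8% higher and 31.6% lower. With the alloy 4 passed, 3 higher and 1 lower, against 49.5% of all genes, 23.5% higher and 26.1% lower. With iron 0 of 6 passed in limma's test, against 2.28% of all genes, and 0 of the 6 had an unadjusted p under 0.05, against 18.1% of all genes. Here 5 of 6 and 4 of 6 are above these shares of all genes. With so many genes called under manganese and alloy, 6 genes are too few to set AP-1 apart from that background. The median log2 change of the 6 genes was 0.09 with the alloy, 0.07 with manganese and 0.02 with iron, against -0.01, 0.00 and 0.00 for all genes. The comparisons with control share the same 6 control arrays.

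**Figure D1:**
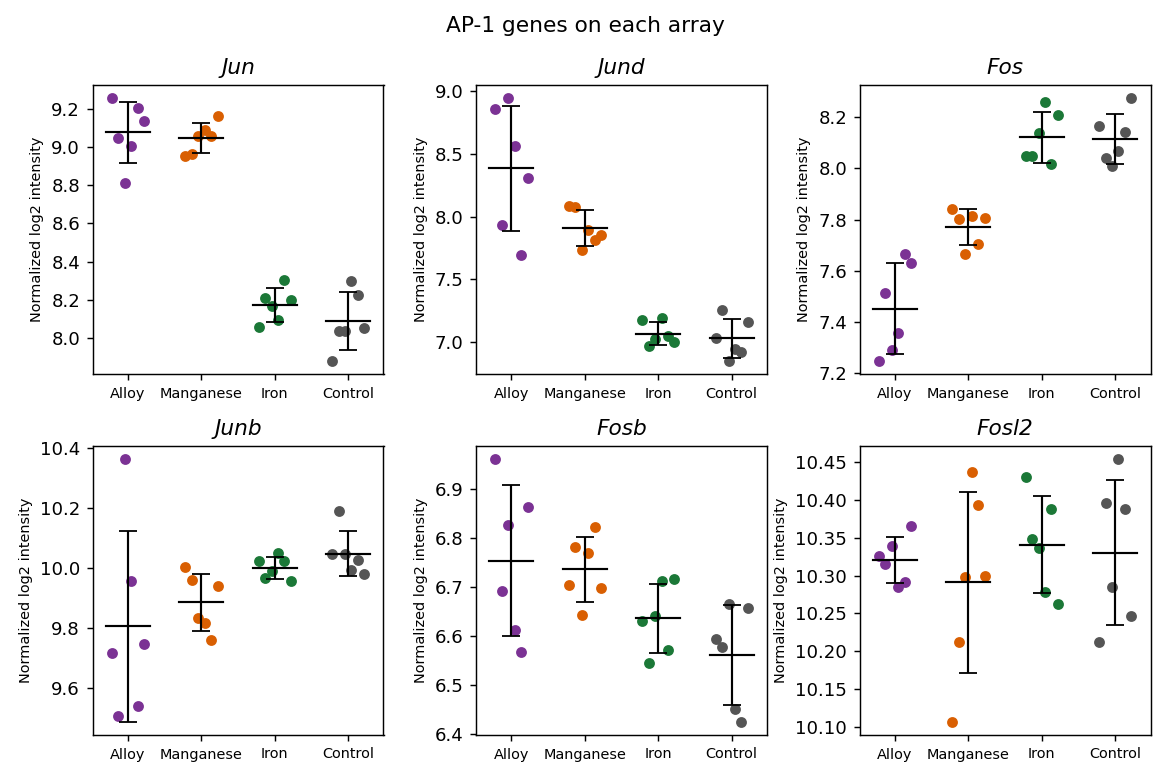
Normalized log2 intensity (vertical axes, each with its own range) of the 6 AP-1 genes on each array, by group. Points are arrays, lines are means and bars are SD (n = 6 per group). Jun and Jund are higher, and Fos is lower, on every alloy and manganese array than on any control array.

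Among the Jun genes, Jun itself, the founding member and a strong transactivator, had a log2 level of 8.81, 9.10 and 9.26 with the alloy (lowest, median and highest of 6 arrays). It was 8.96, 9.06 and 9.17 with manganese, 8.06, 8.18 and 8.30 with iron, and 7.88, 8.04 and 8.30 in controls. All 6 alloy and all 6 manganese arrays lay above all controls, while iron and control arrays overlapped. Such separation, in either direction, was seen for 33.1% of genes with the alloy and 42.5% with manganese. Jun was 1.99-fold higher with the alloy (log2 change 0.99, SE 0.0845, adjusted p = 5.01e-07) and 1.95-fold higher with manganese (0.96, SE 0.0602, adjusted p = 2.3e-11). The direct difference, alloy minus manganese, was 0.03 (95% interval -0.13 to 0.18, adjusted p = 0.857), at doses that differ. With iron the change was 0.08 (interval -0.04 to 0.21, adjusted p = 0.505). In deposited intensity the medians were 541 with the alloy, 521 with manganese, 294 with iron and 275 in controls.

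Jund, the more steadily expressed Jun gene, had the largest log2 change of the 6 in the alloy fit, though Jun exceeded it in the authors' normalized probe table and with alloy arrays 2, 5 and 6 only (1.05 for Jun and 0.95 for Jund). Its log2 level was 7.70, 8.44 and 8.95 with the alloy and 7.74, 7.87 and 8.08 with manganese. With iron it was 6.97, 7.03 and 7.19, and in controls 6.85, 6.99 and 7.26. Again no alloy or manganese array overlapped the controls. Jund was 2.56-fold higher with the alloy (log2 change 1.36, SE 0.185, adjusted p = 3.43e-05) and 1.84-fold higher with manganese (0.88, SE 0.0702, adjusted p = 1.03e-09), and its change with iron was 0.04 (adjusted p = 0.801). The alloy level exceeded the manganese level by 0.48 (interval 0.09 to 0.87), which did not pass after adjustment over all genes (adjusted p = 0.158). That comparison passed without alloy replicate 5 (0.62, adjusted p = 0.0335) and with all 24 arrays in 1 model (0.48, adjusted p = 0.0267), and the difference was 0.07 with alloy arrays 2, 5 and 6 only. Arrays 2, 5 and 6 held the lowest Jund levels of the alloy group, so a smaller Jund change there follows from their choice.

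Junb, which often opposes Jun at its targets, had 2 probes. The bright one, annotated to a cDNA clone, ran at intensities of 595 to 1334 over the 24 arrays. The other, annotated to the RefSeq transcript, was above background on 2 of 24 arrays (55.9 to 80.8) and was not kept, so Junb rests on the clone's probe. On it the log2 level was 9.51, 9.73 and 10.36 with the alloy and 9.76, 9.89 and 10.01 with manganese. It was 9.96, 10.01 and 10.05 with iron and 9.98, 10.04 and 10.19 in controls. Of the 6 manganese arrays 5 lay below all controls, and Junb was 1.12-fold lower with manganese (log2 change -0.16, SE 0.0487, adjusted p = 0.00696), a call lost with all 24 arrays in 1 model (adjusted p = 0.146). Of the alloy arrays 5 lay below all controls and replicate 3 lay above them. The alloy change was -0.24 (SE 0.119, adjusted p = 0.108), and without alloy replicate 3 it was -0.35 (adjusted p = 0.00122), and it passed in 6 of 27 alternatives in all. With iron it was -0.05 (adjusted p = 0.598).

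Among the Fos genes, Fos itself, the immediate early partner of Jun, was lower with both manganese-containing powders. Its log2 level was 7.25, 7.44 and 7.67 with the alloy and 7.66, 7.80 and 7.84 with manganese, while it was 8.02, 8.09 and 8.26 with iron and 8.01, 8.11 and 8.28 in controls. Every alloy and every manganese array lay below all controls. Fos was 1.59-fold lower with the alloy (log2 change -0.67, SE 0.0789, adjusted p = 1.03e-05) and 1.27-fold lower with manganese (-0.35, SE 0.0484, adjusted p = 3.28e-06). With iron its change was 0.00 (interval -0.10 to 0.11, adjusted p = 0.981). Median deposited intensities were 161 with the alloy, 211 with manganese, 291 with iron and 276 in controls.

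Fos was the 1 AP-1 gene that passed in the direct comparison of alloy with manganese, where 4.12% of all genes did. It was 1.25-fold lower with the alloy (log2 difference -0.32, SE 0.0758, adjusted p = 0.0332). The doses were 5000 µg/ml of whole alloy powder, iron included, and 500 µg/ml of pure manganese powder. The lowest manganese array and the highest alloy array overlapped. This call was lost without any single one of alloy replicates 1, 2 and 4 or of the 6 manganese replicates, with adjusted p of 0.0525 to 0.0806 in these fits and differences of -0.28 to -0.34. With alloy arrays 2, 5 and 6 only the difference was -0.17 (adjusted p = 0.0776), with median scaling -0.37 (adjusted p = 0.158), with no normalization -0.40 (0.237) and with the replicate number as a block -0.32 (0.0638). Arrays 2, 5 and 6 held the highest Fos levels of the alloy group, so a smaller difference there follows from their choice.

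Fosb, another immediate early Fos protein, was dim, above background on 23 of 24 arrays at intensities of 72.4 to 107. Its log2 level was 6.57, 6.76 and 6.96 with the alloy, 6.64, 6.74 and 6.82 with manganese, 6.55, 6.64 and 6.72 with iron and 6.43, 6.59 and 6.67 in controls. Arrays of each group overlapped the controls, with 4 alloy and 5 manganese arrays above all of them. Fosb was 1.13-fold higher with manganese (log2 change 0.17, SE 0.0487, adjusted p = 0.00413) and 1.14-fold higher with the alloy (0.19, SE 0.0732, adjusted p = 0.0421), and with iron the change was 0.07 (adjusted p = 0.447). The manganese call was lost with no normalization between arrays (0.13, adjusted p = 0.0567). The alloy call was lost in 13 of 27 alternatives, among them the removal of any single one of alloy replicates 1, 3 and 6 or control replicates 1, 2, 4 and 5, with adjusted p of 0.0584 to 0.0967 in those 7 fits.

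Fosl2, a Fos protein (Fra-2) that lacks the strong transactivation domain of Fos and is expressed more persistently, did not pass in any of the 6 comparisons. Its bright probe gave 10.29, 10.32 and 10.37 with the alloy, 10.11, 10.30 and 10.44 with manganese, 10.26, 10.34 and 10.43 with iron and 10.21, 10.34 and 10.45 in controls. The changes were -0.01 with the alloy (interval -0.12 to 0.10), -0.04 with manganese (-0.16 to 0.08) and 0.01 with iron (-0.09 to 0.11). A second probe lay near background, above it on 4 alloy, 2 manganese, 3 iron and 0 control arrays. In the fit over all kept probes it changed by 0.19 with the alloy (adjusted p = 0.0114) and 0.12 with manganese (adjusted p = 0.0285), where 48.2% of all kept probes passed with the alloy and 60.4% with manganese. With only 4 alloy and 2 manganese arrays above background, no lower limit on its fold change can be given. At levels so near background, the second probe cannot contradict the bright one. The remaining probe was below background on all arrays.

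**Figure D2:**
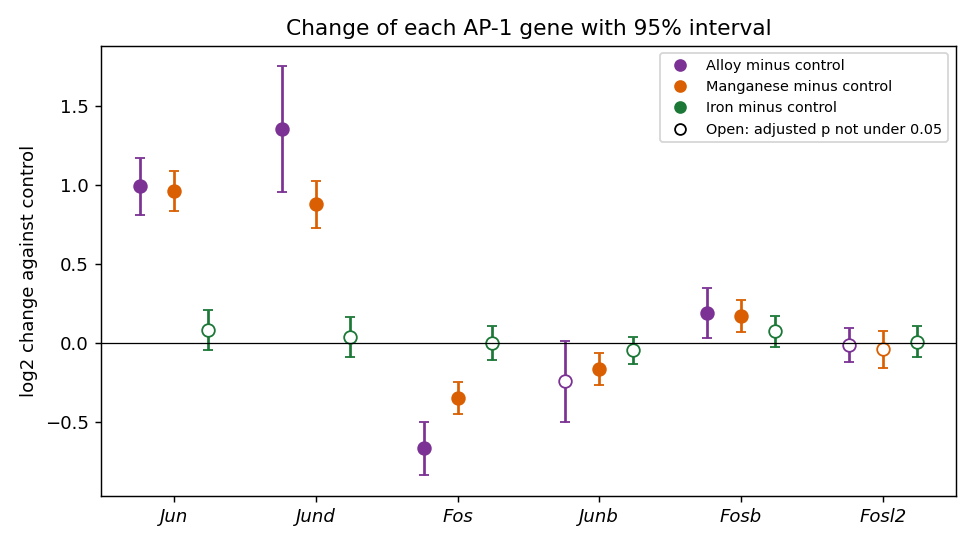
Log2 change against control (vertical axis) of the 6 AP-1 genes with the alloy, manganese and iron. Points are estimates from the 2 groups compared (n = 6 each), bars are 95% intervals, and open points did not pass an adjusted p of 0.05. Jun and Jund changed by 0.88 to 1.36 with the alloy and manganese, Fos by -0.67 and -0.35, and all 6 iron points are open.

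The groups stood in different orders for different genes. For Jun the order was alloy, manganese, iron and control, where alloy and manganese did not differ past the threshold, nor did iron and control. For Jund the order was the same, and the same neighbours did not pass. For Fos iron and control stood together at a mean of 8.12, followed by manganese and then the alloy. For Junb it was control, iron, manganese and alloy, where manganese passed against iron (-0.12, adjusted p = 0.0314) and alloy against manganese did not (adjusted p = 0.754). The Junb call for manganese against iron held in 16 of 26 alternatives. It was lost without any single one of manganese replicates 3, 4 and 5 or iron replicates 1, 4 and 5, where the adjusted p was 0.0531 to 0.0878, and with all 24 arrays in 1 model (0.307). Against iron in place of control the values were close: Jun differed by 0.91 with the alloy and 0.88 with manganese, Jund by 1.32 and 0.84, and Fos by -0.67 and -0.35, each past the threshold (adjusted p of 3.4e-05 or lower). In these comparisons 49.5% of all genes passed with the alloy and 60.9% with manganese.

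In the authors' normalized probe table the alloy changes were 0.37 for Jun, 0.35 for Jund and -0.17 for Fos, and the manganese changes 0.35, 0.19 and -0.09. The directions of these 3 genes were kept and each passed the threshold in all 27 alternatives for the alloy and all 26 for manganese. An offset of 50 added before the logarithm draws dim levels together; with an offset of 16 Jund rose by 1.63 with the alloy and 1.10 with manganese.

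**Figure D3:**
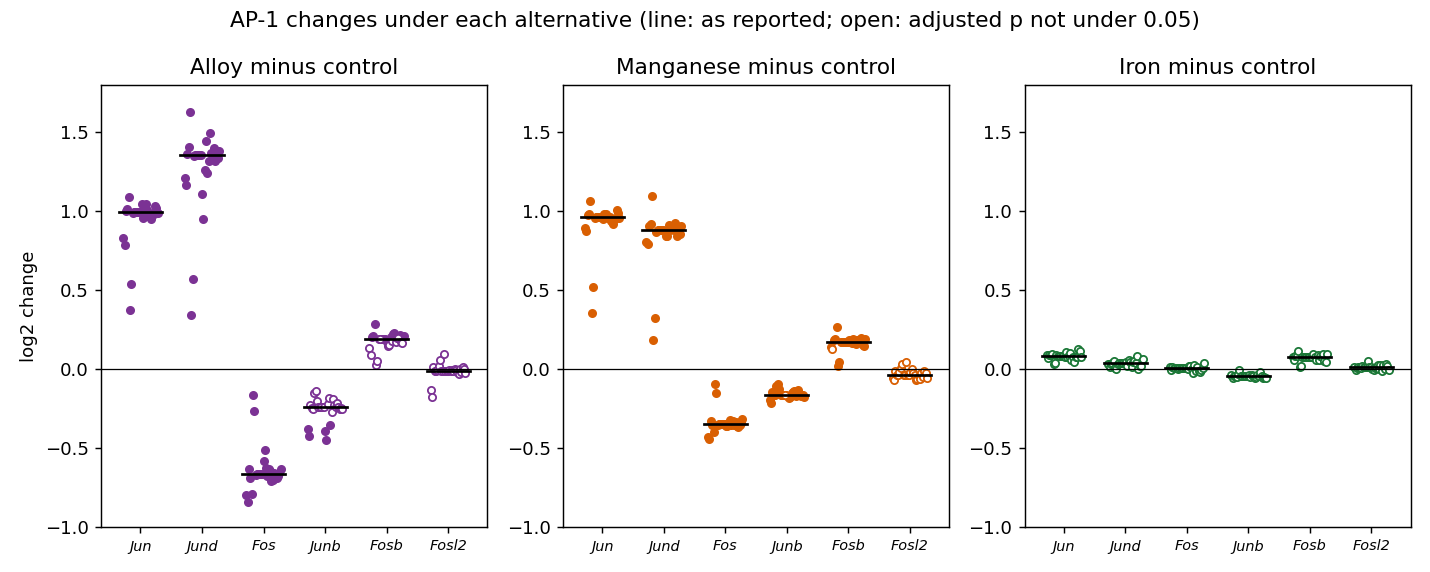
Log2 change (vertical axis) of each AP-1 gene under each alternative, for the alloy, manganese and iron against control. Black lines are the reported values, points are alternatives, and open points did not pass an adjusted p of 0.05. Fos, Jun and Jund stay filled under alloy and manganese, while Fosb and Junb under the alloy are mixed.

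The alloy arrays differed among themselves more than the other groups, and the AP-1 genes did not all vary alike. For Jund the log2 difference from the control mean was 1.83, 0.91, 1.92, 1.53, 0.67 and 1.28 in alloy replicates 1 to 6. For Fos it was -0.87, -0.60, -0.83, -0.76, -0.45 and -0.49 in the same arrays. Replicates 1, 3 and 4 therefore held both the 3 highest Jund and the 3 lowest Fos levels. The stress factor Atf3, a dimer partner of Jun proteins, was also highest there, with 4.68, 2.91, 4.99, 3.90, 1.83 and 2.68, as was the haem oxygenase Hmox1, with 4.07, 2.97, 4.74, 3.90, 2.01 and 2.53. Jun did not follow, with 1.17, 0.96, 0.73, 0.92, 1.12 and 1.05, and its lowest value was in replicate 3. Junb was -0.33, -0.54, 0.32, -0.09, -0.51 and -0.30, with its highest values in replicates 3 and 4. The part of any shared factor in this variation was not tested. Taking alloy arrays 2, 5 and 6 only leaves out replicates 1, 3 and 4, so smaller Jund and Fos changes there follow from that choice. In that fit 4 of 6 genes passed against control as before, but these were Fos, Jun, Jund and Junb, with Junb in place of Fosb.

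**Figure D4:**
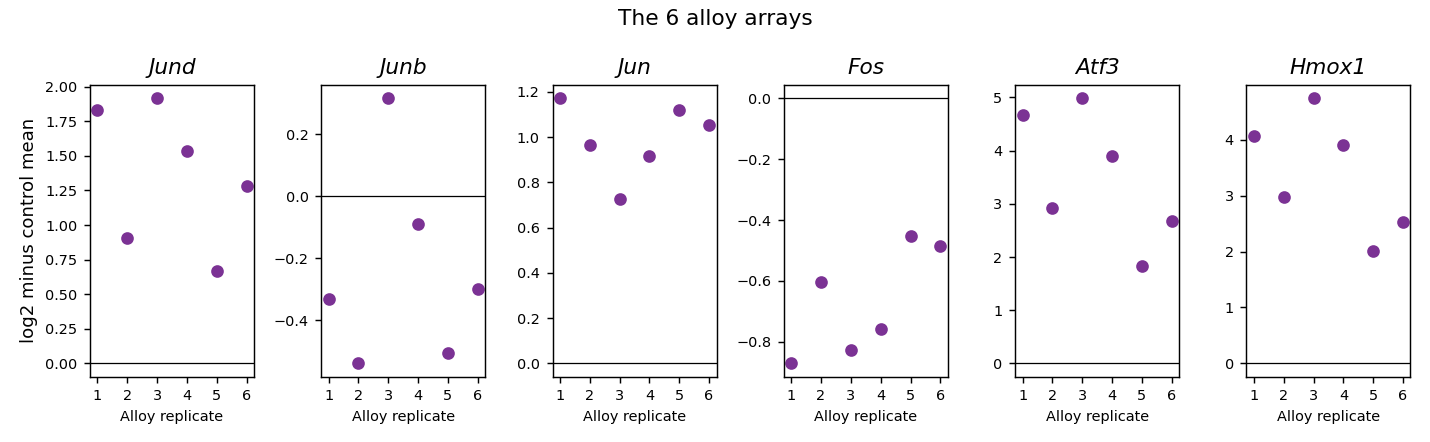
Log2 intensity minus the control mean (vertical axes, each with its own range) on the 6 alloy arrays, by replicate number, for 4 AP-1 genes, Atf3 and Hmox1. Each point is 1 array, and the horizontal line marks the control mean. Jund, Atf3 and Hmox1 are highest, and Fos lowest, in replicates 1, 3 and 4, and Jun is lowest in replicate 3.

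The genes around AP-1 were read from the same fits. Of the other leucine zipper proteins that can pair with Fos or Jun, 11 of 15 were measured, and 9 rose and 1 fell with the alloy and likewise with manganese, where 23.5% of all genes rose and 26.1% fell with the alloy and 29.8% rose and 31.6% fell with manganese. The median log2 change was 0.65 with the alloy and 0.89 with manganese. With manganese Ddit3 (CHOP, a stress factor) rose 5.53-fold (log2 change 2.47), Atf3 rose 7.40-fold (2.89) and Mafg, a small Maf protein, rose 2.28-fold (1.19). With the alloy the rises with the smallest adjusted p were those of Atf4 (1.21), a driver of the amino acid response, Mafg (1.40) and Creb5 (1.52). Atf2, a well known partner of Jun, fell with the alloy (log2 change -0.15) and with manganese (-0.25). The alloy fall was not called with alloy arrays 2, 5 and 6 only. With iron 0 of the 11 passed in limma's test, and Atf3 changed by 0.00.

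Of 28 genes of the JNK, ERK and p38 cascades 23 were measured, of which 4 rose and 6 fell with the alloy, 6 rose and 12 fell with manganese and 0 passed with iron. With 49.5% of all genes called with the alloy and 61.4% with manganese, 10 of 23 is below the first share, and 18 of 23 is above the second. The medians were -0.10, -0.12 and -0.01. Map2k1, which encodes the ERK kinase MEK1, rose by 0.70 with the alloy and 0.62 with manganese. Mapk3, which encodes ERK1, fell with the alloy (log2 change -0.40) and with manganese (-0.52), as did Braf, an activator of MEK1 (-0.35 and -0.52). Mapk8, which encodes the Jun kinase JNK1, rose by 0.15 with the alloy, and Mapk9, which encodes JNK2, fell with manganese (-0.34). The S6 kinase gene Rps6ka3 rose by 0.15 with manganese, and Rps6ka5, which encodes the histone kinase MSK1, fell with the alloy (-0.34).

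Among 13 measured of 16 genes for factors that drive Fos and Jun transcription, 1 rose and 4 fell with the alloy, 2 rose and 6 fell with manganese, and 0 rose and 2 fell with iron. Of all genes 49.5% were called with the alloy and 61.4% with manganese, so that 5 of 13 and 8 of 13 are below or near these shares, and with iron 0.771% rose and 1.51% fell. Their medians were -0.05, -0.06 and -0.04. Stat3, which acts on the Fos promoter after cytokines, was lower by 2.75-fold with the alloy (log2 change -1.46), and its log2 change with manganese was -1.70. Srf, the factor at the serum response element of Fos, fell with manganese (-0.28). Creb1, which binds cyclic AMP response elements, rose by 0.29 with the alloy and 0.26 with manganese, and Mrtfa, a coactivator of Srf, rose by 0.17 with manganese. The acetyltransferase Crebbp, a coactivator of Creb1 and of AP-1, fell with the alloy (-0.50), manganese (-1.37) and iron (-0.67), and its relative Ep300 fell with the alloy (-0.30) and iron (-0.26). With all 24 arrays in 1 model, 1 gene of this list fell with iron and 1 rose with manganese.

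Of 11 measured of 12 genes for turnover and repression of AP-1, 1 rose and 4 fell with the alloy, 2 rose and 7 fell with manganese, and 0 rose and 1 fell with iron. The share of all genes called was 49.5% with the alloy, near 5 of 11, 61.4% with manganese, below 9 of 11, and 2.28% with iron. The medians were -0.07, -0.30 and -0.03. Pdcd4, which restrains AP-1 activity, fell with the alloy (-1.22) and manganese (-0.84), and Men1, whose product menin binds JunD and represses it, fell with each (-0.49 and -0.50). The mRNA decay factor Zfp36 rose by 0.56 with the alloy and 0.38 with manganese, and its relative Zfp36l1 fell (-1.02 and -0.68). Fbxw7, part of a ubiquitin ligase for Jun, rose by 0.23 with manganese. Itch, another ligase for Jun and Junb, fell with iron (-0.35). With all 24 arrays in 1 model 0 of these genes passed with iron and 1 rose with manganese, and with alloy arrays 2, 5 and 6 only 0 rose with the alloy.

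Of 32 genes described elsewhere as AP-1 targets 27 were measured, and 17 rose and 5 fell with the alloy, 18 rose and 5 fell with manganese, and 2 rose and 1 fell with iron. Of all genes 23.5% rose and 26.1% fell with the alloy, 29.8% rose and 31.6% fell with manganese, and 0.771% rose and 1.51% fell with iron. The median log2 change was 0.38 with the alloy, 0.26 with manganese and 0.00 with iron. Vegfa, an angiogenic growth factor, rose by 2.50 with the alloy and 2.63 with manganese, Hbegf, a ligand of the EGF receptor, by 1.66 and 1.76, and the chromatin protein Hmga1 by 1.53 with each. The growth factor Fgf7 fell with the alloy (log2 change -2.63) and manganese (-2.36), as did the collagen cross-linking enzyme Lox (-2.26 and -1.92) and the lipid kinase Sphk1 (-0.50 and -0.56). With iron Hmox1 (0.21) and Sphk1 (0.20) rose and Lox (-0.18) fell, and with all 24 arrays in 1 model 0 of the 27 passed. Vegfa and Hmox1 are known targets of other stress-responsive factors as well. In the same comparisons fibroblast markers fell, 8 of 10 with the alloy and 10 of 10 with manganese (medians -0.79 and -0.76), and 0 of 10 passed with iron; their part in these values was not tested.

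**Figure D5:**
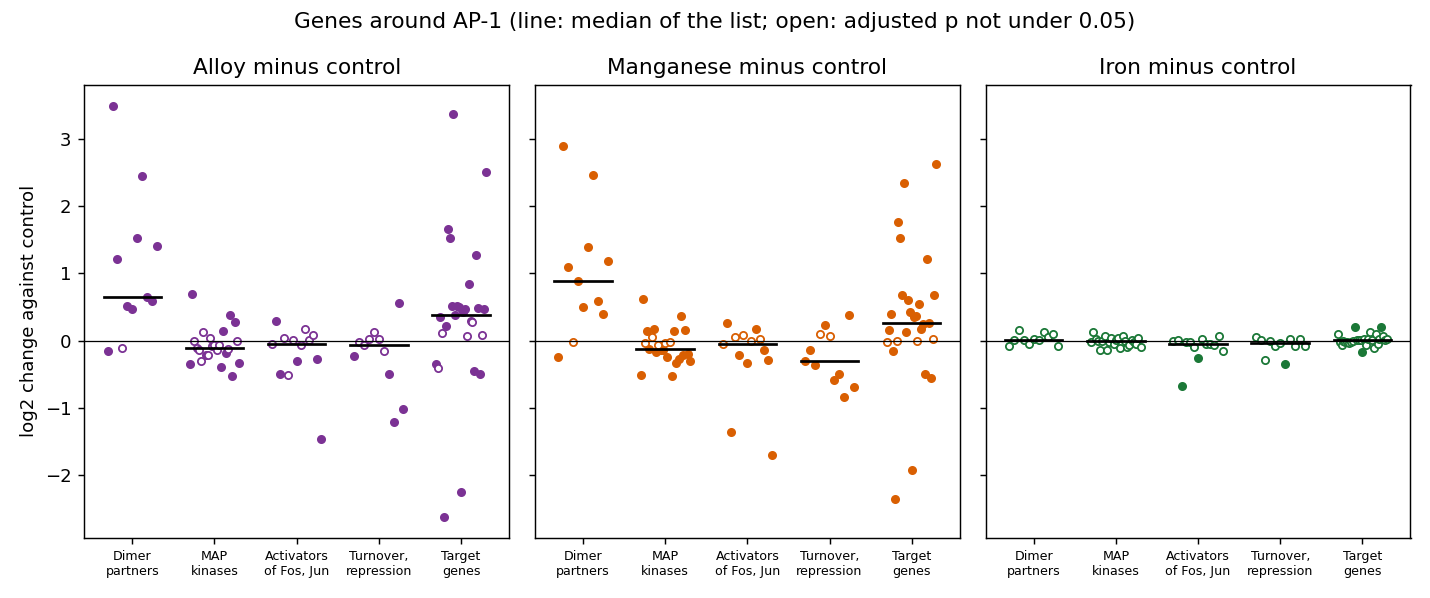
Log2 change against control (vertical axis) of the measured genes in 5 lists around AP-1, with the alloy, manganese and iron. Each point is a gene, lines are list medians, and open points did not pass an adjusted p of 0.05. Under alloy and manganese the dimer partners lie mostly above 0, with medians of 0.65 and 0.89, and the iron points lie near 0 apart from a few falls.

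For each AP-1 gene the profiles most like it were found as those with the smallest root mean square difference over the 24 arrays, each set to 0 at its control mean. Jun was closest to Nkrf (difference 0.114 log2 units) and Pus1 (0.133), while its own profile had a root mean square of 0.702. Jund was closest to Krt14 (0.150) and Fyb (0.163), against 0.846 for its own profile, and Fos to Rab29 (0.0733) and Pank2 (0.0913), against 0.391. Junb was closest to Cyp4v3 (0.106) and Amdhd2 (0.108), against 0.215. For Fosb (Ascc1 at 0.0802 and Aqr at 0.0834, against 0.165) and Fosl2 (Bcl10 at 0.0607 and Krtap9-3 at 0.0702, against 0.0802) the likeness says less, since these genes themselves moved little.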

How the data were processed

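Per the labels' protocols, total RNA was purified with Trizol and RNeasy columns and hybridised as biotin cRNA to Illumina bead arrays. Per the file headers, the authors deposited non-normalized intensity and normalized log2 values, each per probe and per symbol. Among the submitters' processing notes are lumi and RMA, without role or version. Detection p-values were not used here. Background was taken from each array's mode and the spread below it, at a limit that a normal curve of that spread would pass in 1% of dim probes.

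limma 3.58.1 (R 4.3.3) was run with normexp (offset 50), quantile normalization, lmFit and eBayes on the 2 groups compared, two-sided, with Benjamini-Hochberg adjustment over 13103 genes. Python 3.11.15, pandas 2.3.3, SciPy 1.17.1 and Matplotlib 3.10.9 served for matching and plotting. Probe tables were joined by ranks within a symbol: 34885 probes had 1 annotated gene, 18 had several and were left out, and 10378 kept the array's symbol. The second Batf3 probe was found through an older clone name. The fits were tested on simulated data.

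The members, lists, tests and alternatives were chosen with earlier results of these data known, and the motifs after the promoters were seen. From each list, up to 3 genes per direction with the smallest adjusted p in each comparison with control were named, except 1 gene that is not reported here. Values of Atf3 and Hmox1 per array, and of named genes in comparisons where they fell outside that rule, were chosen after being seen. Profile neighbours were limited to annotated genes without clone names. The number of arrays limits the precision.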

Additional observations from a re-analysis of the deposited data

Results flagged for a closer look

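In 44 groups of 6 arrays (11 probes in 4 groups), 1 array stood apart by Dixon's criterion, which flags about 1 in 20 groups by chance. The bright Junb probe was at 10.19 in control replicate 2, and the next control array was at 10.05.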

How the results depend on the processing

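For single AP-1 genes, 897 of 954 values recomputed under an alternative kept their side of the threshold, 38 lost it and 19 gained it. Called values changed sign in 0 of them, and 37 values called in neither fit did. The counts of AP-1 genes past the threshold with the alloy (4), manganese (5) and iron (0) stayed within 1.5 times under every alternative run. Leaving out 1 array, with normalization and filter kept, gave 3 to 4, 5 to 5 and 0 to 0, and against iron 3 to 4 with the alloy and 3 to 5 with manganese. For alloy against manganese the count was 1, and 0 with median scaling, 0 with no normalization, 0 with the replicate block and 2 with all 24 arrays in 1 model. With alloy arrays 2, 5 and 6 only it was 1, Junb in place of Fos. Leaving out 1 array gave 0 (without alloy replicate 1, 2 or 4 or any manganese replicate) to 2 (without alloy replicate 5).

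Of all genes, 2.28% passed with iron, and 0.985% with median scaling, 0.985% with no normalization, 1.46% with an offset of 16 and 0.229% with all 24 arrays in 1 model. For alloy against manganese 4.12% passed, and 0.244% with median scaling, 0.130% with no normalization, 15.3% with all 24 arrays in 1 model, 2.63% with the replicate block, 12.2% with array weights and 10.5% with alloy arrays 2, 5 and 6 only. The block moved no other count by over 1.5 times. The labels do not say that a replicate number marks a shared culture or day. Deviations of same-numbered arrays correlated at -0.20 to 0.35, above 0.1 in 13 of 36 pairs, and 11 of 36 arrays correlated best with their own number, so the numbers were not taken to pair arrays, though a shared factor for some numbers, such as replicate 1 (0.0985 to 0.35), cannot be told from these values. Leaving out 1 array gave 0.954% to 2.62% with iron, where iron replicates 3, 5 and 6 and control replicate 4 mattered most (1.2%, 1.33%, 0.954% and 1.05% without each). It gave 1.31% (without manganese replicate 4) to 6.54% (without alloy replicate 5) for alloy against manganese, with 2.20% and 2.31% without alloy replicates 1 and 2 and 1.62%, 1.77%, 1.48% and 1.5% without manganese replicates 2, 3, 5 and 6. It gave 46.0% to 51.2% with the alloy, 59.6% to 61.2% with manganese, 46.1% to 51.4% for alloy against iron and 58.9% to 60.8% for manganese against iron. The cause of these differences was not tested. With no normalization the median of all genes shifted by -0.13 with the alloy against control and by -0.11 against iron. Higher calls made up 47.4% of the calls with the alloy (28.5% with median scaling and 22% with no normalization), 33.8% with iron (17.1% and 4.65%), 48.5% with manganese (41.0% and 38.4%), 46.9% for alloy against iron (27.8% and 23.7%) and 45.6% for alloy against manganese (18.8% and 5.88%). Dim probes of Fosb, Fosl2, Junb and Batf3 limit what can be read from them.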
